A study of Mus musculus with 16 samples.

Results

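The comparison described here is of total RNA between mouse embryonic stem cells that carry 1 disrupted copy of Nat1 (Nat1+/-) and wild-type (WT) cells. Nat1 is an older name of Eif4g2. The Nat1+/- group held 3 libraries, from the clones A7, B4 and C1, and the WT group held 2 libraries, replicates 1 and 2 of the RF8 line. These are 5 of the 16 libraries of the study, which sequenced ribosome footprints and total RNA of each culture. All cultures were grown with LIF, the cytokine that keeps mouse stem cells undifferentiated, on gelatin. A further 3 total RNA libraries, from the Nat1-/- clones B12, B2 and C3, entered the fit only to estimate the spread within a genotype. Each Nat1+/- library is 1 clone, whereas the WT libraries are replicates of 1 line. Clonal differences are therefore part of the Nat1+/- spread and not of the WT spread. Beyond their numbers, nothing states that the WT replicates were separate cultures. Genes with a mean of at least 10 normalised reads over the 8 total RNA libraries were tested, which left 13813 of 21977 gene names. A normalised read is a read count divided by a size factor of its library, and differences are given on the log2(normalised reads + 1) scale as Nat1+/- minus WT.

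Eif4g2 encodes a protein related to eIF4G, the scaffold on which translation initiation is built, but it lacks the stretch through which eIF4G contacts eIF4E at the mRNA cap, and it is known to support the translation of some mRNAs. Mouse embryonic stem cells in LIF express the general pluripotency factors Oct4 (Pou5f1) and Sox2 together with naive factors such as Tfcp2l1, Tbx3 and Nr5a2. Cells leaving that state lose the naive factors and gain formative and primed epiblast genes such as Pou3f1, Dnmt3b and Fgf5, and a minority of cells in such cultures can differentiate spontaneously.

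Library depth coincided with genotype. The Nat1+/- libraries held 13.2, 14.6 and 14.8 M (mega) reads (A7, B4 and C1), against 42.6 and 33.6 M in WT replicates 1 and 2, so depth and genotype cannot be told apart within these 5 libraries. Among the Nat1-/- clones, B12 was as deep as WT, at 42.5 M reads, and B2 and C3 were as shallow as Nat1+/-, at 16.4 and 14.2 M. A count of 0 allows up to 3 reads, which is 4.28 to 4.90 normalised reads in the Nat1+/- libraries and 1.38 to 1.81 in WT, counting error only. On the first principal component of the 8 libraries (65.5% of the variance) B4 lay at -59.8, beside WT at -67.3 and -61.7, while A7 and C1 lay at -18.5 and -31.6. On the second (17.5%) B4 lay at 30.6, with A7 and C1 at 45.6 and 25 and away from WT at -45.1 and -33.7. Pou5f1, the defining pluripotency factor, had 20294, 16628 and 19118 normalised reads in A7, B4 and C1, against 21346 and 22764 in WT.

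A total of 1383 of the 13813 genes were called (10% of those tested; limma, Benjamini-Hochberg adjusted p under 0.05). Of these, 636 were higher in Nat1+/- (4.6% of genes tested) and 747 lower (5.41%), and 265 higher (1.92%) and 413 lower genes (2.99%) differed at least 2-fold. The groups did not overlap for 54.6% of the genes tested, with all clones above WT for 26% and below it for 28.6%. Of the lists described below, 10 of 22 contractile genes, 11 of 22 SRF and YAP targets and 8 of 18 formative and primed epiblast genes fell. Smaller shares fell among imprinted genes (6 of 25), WNT response and destruction complex genes (6 of 22) and collagens (6 of 32). Of germline genes 10 of 24 rose, as did 6 of 21 naive pluripotency genes and 6 of 33 glycolytic and hypoxia-response genes. A share of the calls followed the chromosome of the gene, since 21.4% of the higher calls lay on chromosome 1 and 26.5% of the lower calls on chromosome 11. The count of calls rested on both WT libraries: it was 0 without WT replicate 1 (2019 genes at an unadjusted p under 0.05, against 4171, or 30.2%, with all libraries) and 16 without WT replicate 2. It was 186 without A7, 1059 without B4 and 573 without C1, and 0 (1527 at an unadjusted p under 0.05) when depth class was added as a term. All 1383 calls kept their sign in each of these 6 fits. Where the groups do not overlap, leaving out 1 library cannot reverse the sign, so this is no separate support for the calls.

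The splits of the calls depended on scaling. With TMM factors 495 genes were higher and 900 lower, and with library sums made equal 450 were higher and 1150 lower, against 636 and 747. The median difference over all genes tested was -0.02, and it was -0.08 with TMM factors and -0.11 with equal sums. The differences below are therefore relative to a typical gene of the library and not to the RNA content of a cell. In bulk samples such as these, fewer cells of a type and less RNA per cell cannot be told apart.

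Eif4g2 itself, the targeted gene, had 15335, 12092 and 10674 normalised reads in A7, B4 and C1, against 47932 and 26985 in WT replicates 1 and 2. Every Nat1+/- clone lay below both WT libraries, and the Nat1+/- mean of 12700 ± 2390 (SD, n = 3) was 33.9% of the WT mean of 37458 ± 14812 (SD, n = 2). The log2 difference was -1.52 ± 0.35 (SE, limma adjusted p = 0.0277). An exact two-sided permutation test over the 5 libraries gave p = 0.1, the smallest value that 3 against 2 libraries allow. Leaving out any 1 of the 5 libraries ended the call, with differences between -1.93 and -1.10 and limma adjusted p values between 0.059 and 0.276. It was also lost with the depth term, at -0.65 (limma adjusted p = 0.671), and with a variance without trend (limma adjusted p = 0.0713). Its footprints fell too, by 0.92 ± 0.19 on the log2 scale (limma adjusted p = 0.0239). In the Nat1-/- clones B12, B2 and C3 the total RNA values were 12249, 8795 and 5085 normalised reads, which overlap those of Nat1+/-.

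The paralogous scaffolds were not called. Eif4g1, the main eIF4G, had 13004, 14483 and 14896 normalised reads in Nat1+/- and 13820 and 16348 in WT, with overlapping groups. Eif4g3 had 1168, 1366 and 1556 in Nat1+/- and 1596 and 1577 in WT (limma adjusted p = 0.406). Of 19 tested genes for eIF4G proteins, cap-binding factors and their regulators, 1 rose and 3, including Eif4g2 itself, fell. Eif4a2, an RNA helicase that works with eIF4G, rose with 33490, 32805 and 30399 normalised reads in Nat1+/- against 15613 and 18172 in WT. Eif4ebp1, which encodes an eIF4E-binding repressor, and Mknk2, which encodes a kinase of eIF4E, fell by 0.68 ± 0.16 and 1.06 ± 0.24 (SE) on the log2 scale. Without A7 none of the 4 was called. Among 32 tested eIF1, eIF2, eIF3 and eIF5 factor genes 9.38% were called, near the 10% over all genes. Eif5b and Eif3a rose, by 1.01 ± 0.16 and 0.79 ± 0.17 (SE), and Eif6 fell by 0.60 ± 0.16 (SE). Eif5b lies on chromosome 1, and without A7 1 of these 3 was called.

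Map3k3 and Sos1 encode a kinase and an exchange factor of the MAPK cascade, which relays growth factor signals. Map3k3 had 1290, 1903 and 1586 normalised reads in Nat1+/- and 2663 and 2551 in WT, a difference of -0.73 ± 0.17 (SE, limma adjusted p = 0.0277). That gene lies on chromosome 11, and it was not called once each library was centred on the median of each chromosome. Sos1 had 1443, 1329 and 1444 normalised reads in Nat1+/- and 1557 and 1481 in WT, and was not called (limma adjusted p = 0.653).

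Gene position gave the broadest pattern among the calls. On chromosome 1, 136 of 767 tested genes rose and 13 fell, so 19.4% were called, and the median difference was 0.34. On chromosome 11, 8 of 1144 genes rose and 198 fell, so 18.0% were called, and the median difference was -0.38. The other 18 chromosomes apart from Y had medians between -0.12 and 0.11 and called shares between 7.28% and 12.1%, with 487 higher and 533 lower calls among 11770 genes (8.67%). Chromosome was assigned by gene symbol, and it was not among the properties by which the genes tested were chosen.

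The clones differed in the size of these chromosome shifts. For chromosome 1 the median difference from the WT mean was 0.27 in A7, 0.55 in B4 and 0.19 in C1, against 0.03 and -0.03 in the WT libraries. For chromosome 11 it was -0.54 in A7, -0.17 in B4 and -0.42 in C1, with WT within 0.004 of 0. B4 thus had the largest shift of these 3 clones on chromosome 1 and the smallest on chromosome 11. The Nat1-/- clones B12, B2 and C3 had medians of -0.40, -0.41 and -0.43 on chromosome 11, so that shift was not particular to Nat1+/-. On chromosome 1 their medians were 0.38, 0.11 and 0.05. Footprints, which were sequenced as separate libraries of the same cultures, had medians of 0.34, 0.58 and 0.20 on chromosome 1 and -0.48, -0.16 and -0.37 on chromosome 11 in A7, B4 and C1. Between 74.8% and 78.7% of the tested genes lay on the side of the shift. On chromosome 1, 574 of 767 genes were higher by any amount, and on chromosome 11, 900 of 1144 were lower. Over all genes tested, 6633 were higher and 7179 lower by any amount.

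**Figure D1:**
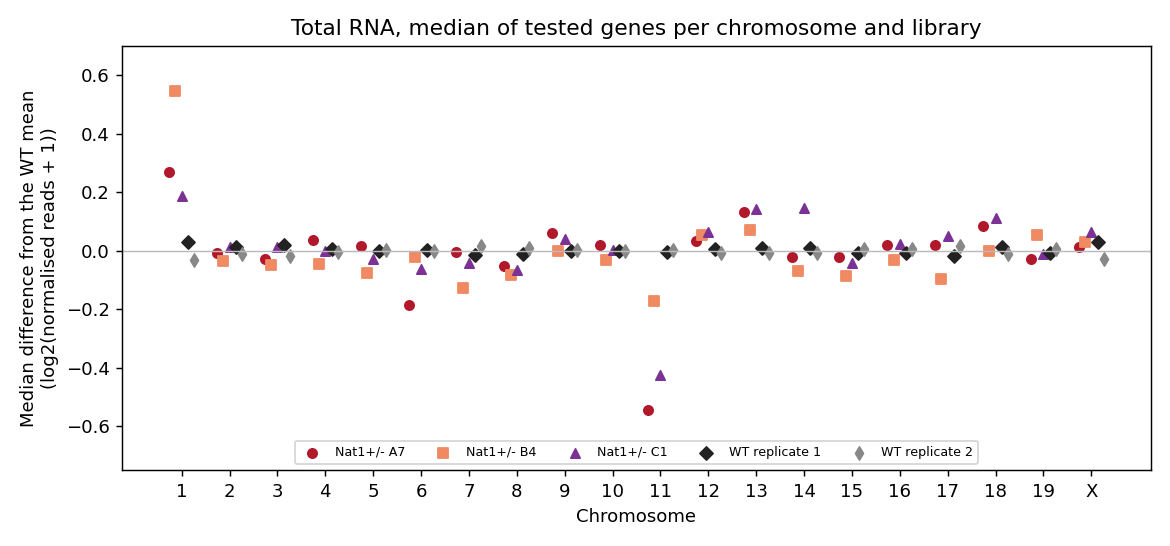
Median over tested genes of the log2(normalised reads + 1) difference from the WT mean, per chromosome (x axis) and library (y axis, log2 units); A7, B4 and C1 are Nat1+/- clones, and the WT replicates are the 2 grey and black symbols. Nat1+/- clones stand apart from WT on chromosome 1 (0.19 to 0.55) and chromosome 11 (-0.54 to -0.17).

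The shift of chromosome 11 ran along its whole length in all 3 Nat1+/- clones, and that of chromosome 1 did so in A7 and B4. When the tested genes of chromosome 11 were split by gene order into 10 equal parts, each part had a median below 0 in all 3 clones, from -0.68 to -0.43 in A7, from -0.27 to -0.05 in B4 and from -0.53 to -0.33 in C1. The parts of chromosome 1 had medians from 0.10 to 0.39 in A7, from 0.35 to 0.62 in B4 and from 0.002 to 0.43 in C1, where the first 3 parts were at most 0.06 and as near 0 as in WT replicate 1. Chromosome 8 had a local difference in 2 of the 3 clones. Its first part, of 76 genes, had medians of -0.42 in A7 and -0.42 in C1 and -0.02 in B4, with 0 higher and 7 lower calls. Its other 9 parts lay between -0.21 and 0.07 in the 3 clones. In the Nat1-/- clones B12, B2 and C3 the first part had medians of -0.40, -0.38 and -0.26. All of chromosome 8 had medians of -0.46, -0.45 and -0.46 in them, so a lower first part was not particular to Nat1+/-. With genes of chromosomes 1 and 11 left out of the fit, an alternative chosen after seeing the data, 420 genes were higher and 465 lower among 11902. Called genes on these 2 chromosomes are marked as such where their list or value is described.

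**Figure D2:**
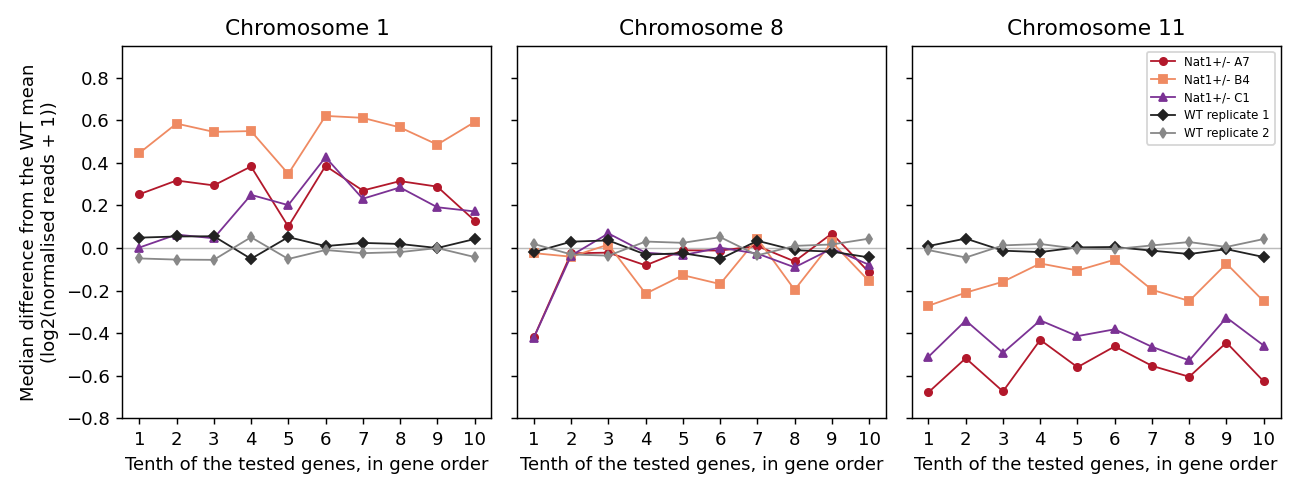
Median log2(normalised reads + 1) difference from the WT mean (y axis) over 10 equal parts of the tested genes of chromosomes 1, 8 and 11 in gene order (x axis), with 1 line for each Nat1+/- clone and each WT library. The 3 clones lie below WT along all of chromosome 11, and A7 and C1 lie at -0.42 in the first part of chromosome 8.

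Among the 10 genes with the lowest differences were matrix, contractile and growth factor genes. Igf2, an imprinted fetal growth factor, had 14.7, 46.1 and 32.8 normalised reads in Nat1+/- and 1098 and 2187 in WT, a log2 difference of -5.73 ± 0.51 (SE, limma adjusted p = 0.00464). Cav1, which encodes the caveolar coat protein caveolin-1, was at 0 in A7 and C1 and at 5.76 in B4, against 112 and 180 in WT, and its fitted difference of -6.24 depends on the added 1. Acta2, smooth muscle actin, had 14.7, 79.2 and 12.8 normalised reads in Nat1+/- and 382 and 1356 in WT. In all 3 genes B4 was the highest of the clones and still far below WT.

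Tagln, an actin-binding protein of smooth muscle, had 52.2, 312 and 67.1 normalised reads in Nat1+/- and 2105 and 2449 in WT (-4.44 ± 0.62, SE). The collagen I genes Col1a1 and Col1a2 fell, with log2 differences of -4.36 ± 0.82 and -4.19 ± 0.78 (SE). Col1a1 had 29.4, 284 and 41.4 normalised reads in Nat1+/- against 792 and 2729 in WT, so B4 was again the nearest to WT. The remaining 4 were T, the mesoderm transcription factor Brachyury (-3.82), Tgfb2, a ligand of the TGF-beta family on chromosome 1 (-3.77), Calcr, the calcitonin receptor (-3.72), and Anxa1, a phospholipid-binding annexin (-3.72). All 10 lay below WT in all 3 clones, which the rule for naming them required.

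**Figure D3:**
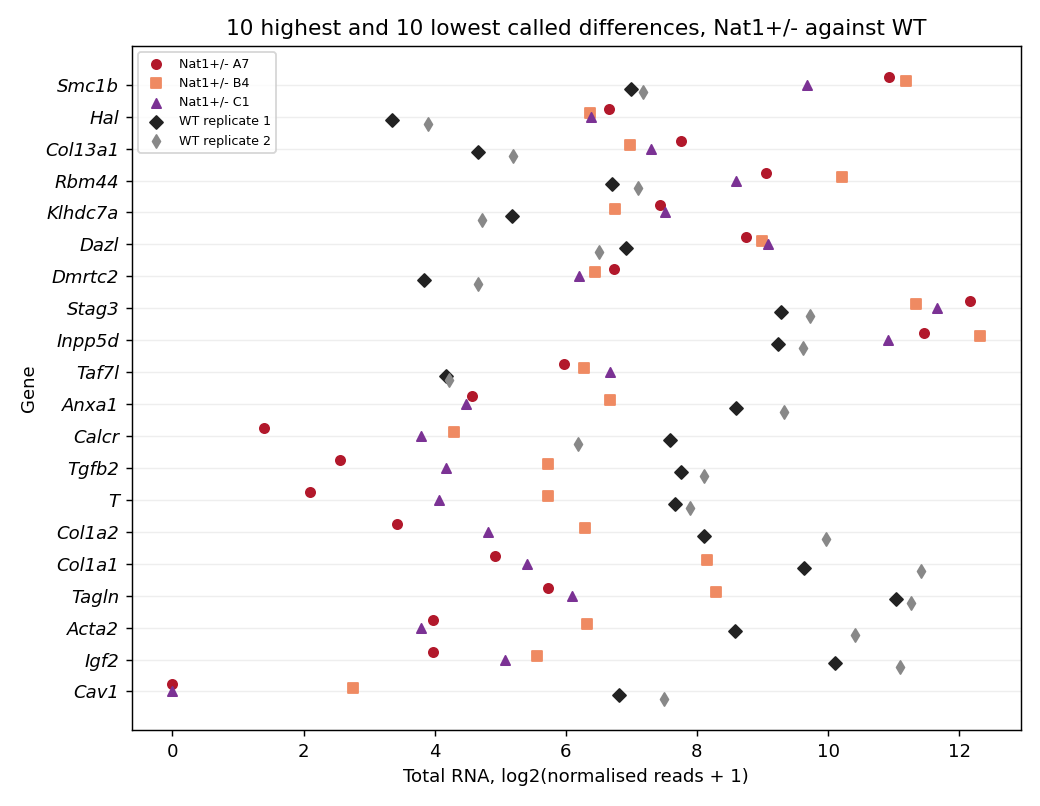
Total RNA values on a log2(normalised reads + 1) axis for the 10 genes with the highest and the 10 with the lowest called differences (rows), with 1 symbol for each Nat1+/- clone and each WT library. Clones and WT do not overlap for any of the 20 genes, which is part of how they were chosen, and B4 lies nearest to WT for each of the 10 lower genes.

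Smooth muscle and contractile genes fell in number. Of 22 tested members, 10 fell and 0 rose, against 5.41% lower calls over all genes, and the median difference was -0.78. The list's median difference from the WT mean was -1.08 in A7, -0.56 in B4 and -1.03 in C1, against -0.06 and 0.06 in WT. The lower members were Acta2, Tagln, Cnn1 and Cnn2 (calponins), Myl9 (a myosin light chain), Tpm1 and Tpm4 (tropomyosins), Pdlim7, Smtn (smoothelin) and Zyx (zyxin). Smtn lies on chromosome 11. Cnn2 had 369, 677 and 338 normalised reads in Nat1+/- and 2118 and 2212 in WT (-2.30 ± 0.29, SE, limma adjusted p = 0.00765). Tpm1 had 2346, 3815 and 2168 in Nat1+/- and 8164 and 7548 in WT. Both genes had B4 as the highest clone, with no overlap between the groups.

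The 12 members not called included large structural proteins of most cells. Flna (filamin A) had 9980, 11544 and 9486 normalised reads in Nat1+/- and 6092 and 8008 in WT, and Myh9 (non-muscle myosin) had 17615, 17788 and 15250 in Nat1+/- and 10278 and 14282 in WT. Both lay above WT in all 3 clones without passing the test (limma adjusted p = 0.146 and 0.312). The other members not called were Actn1, Cald1, Csrp1, Des, Lmod1, Myh11, Mylk, Synpo2, Tpm2 and Vcl, with differences between -1.13 for Cald1 and 0.97 for Mylk. The summed level of the list was 41483 to 50830 normalised reads in Nat1+/- and 52420 and 58297 in WT. Without A7, B4 or C1 the counts of lower members were 8, 11 and 8, and without WT replicates 1 or 2 they were 0 and 1.

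Targets of the transcription factor SRF and of the coactivator YAP, which respond to actin dynamics and cell tension, gave a similar count. Of 22 tested targets 11 fell and 0 rose, and the median was -1.29. The YAP targets Ctgf, Cyr61, Amotl2, Ajuba, Lats2 and Axl were among them. Ctgf, a secreted matrix-associated factor, had 147, 533 and 364 normalised reads in Nat1+/- and 2379 and 2122 in WT (-2.87 ± 0.51, SE). Actg1, cytoplasmic gamma actin, had 12847, 22465 and 13982 in Nat1+/- and 39149 and 33221 in WT, and lies on chromosome 11. Actb, beta actin, had 54073, 55998 and 51401 in Nat1+/- and 50676 and 72125 in WT and was not called. Actin genes have processed copies elsewhere in the genome, and the treatment of reads shared with them is not stated in the labels. Without A7 or C1 the lower members numbered 3 and 4.

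SRF binds a 10-base element named the CArG box, which was searched on both strands of the promoter windows, 250 bases before to 50 after each start. It was present for 2 of 9 lower contractile genes with a promoter in the RefSeq table, Cnn2 and Myl9, and for 3 of 8 lower SRF and YAP targets, Actg1, Filip1l and Srf. By gene, 1.81% of all 27025 genes with a window held it, as did 1.53% of genes tested and 3.45% of the genes called lower. Of the other motifs searched, the TEAD box CATTCC was present for 16.9% of genes called lower and 14.4% of genes tested, the AP-1 site TGANTCA for 7.24% and 6.04%, and the SMAD box GTCTAGAC for 0.172% and 0.296%. These matches describe letters in a short window and not a bound site. The windows of Myl9 (chr2:156775214-156775513, plus strand) and Cnn2 (chr10:79988350-79988649, plus strand), RefSeq on GRCm38.p6, are printed because they show the element in the lower contractile genes, with its letters in capitals.
Myl9: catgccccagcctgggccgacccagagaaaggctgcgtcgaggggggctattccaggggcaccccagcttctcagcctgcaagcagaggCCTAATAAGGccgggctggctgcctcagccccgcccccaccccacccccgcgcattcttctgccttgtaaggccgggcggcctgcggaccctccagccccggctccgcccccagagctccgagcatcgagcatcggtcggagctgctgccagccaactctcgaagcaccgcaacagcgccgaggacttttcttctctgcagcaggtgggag
Cnn2: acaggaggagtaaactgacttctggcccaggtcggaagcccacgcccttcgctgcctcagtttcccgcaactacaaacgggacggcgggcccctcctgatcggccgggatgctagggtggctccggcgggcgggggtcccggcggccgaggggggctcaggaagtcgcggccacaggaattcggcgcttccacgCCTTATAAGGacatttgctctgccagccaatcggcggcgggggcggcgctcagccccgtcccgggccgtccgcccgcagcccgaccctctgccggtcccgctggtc
The match began 161 bases before the start of Myl9 and 56 bases before that of Cnn2.

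Fibroblast and feeder-cell markers were examined because such cells would carry collagens and actin. Of 25 listed genes 17 were tested, of which 6 fell and 0 rose, against 5.41% lower calls over all genes. The median was -0.68. The lower members were Col1a1, Col1a2, Col3a1, Col5a2, Loxl1 and Vim. Vim (vimentin) had 2013, 2007 and 1383 normalised reads in Nat1+/- and 3482 and 3877 in WT. Col3a1 had 0, 11.5 and 1.43 in Nat1+/- and 27.6 and 105 in WT. Vim, Loxl1, Col3a1 and Col5a2 lost the call without A7 and without C1, and Col1a1 lost it without A7. Col1a1 lies on chromosome 11, and Col3a1 and Col5a2 lie on chromosome 1 and fell against its shift.

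Of the 17 tested markers 12 had a difference below 0 and 5 above it. Over all genes tested, 7179 had a difference below 0 and 6633 above it. Dcn, Lum and S100a4 were at 0 in all 3 clones and at no more than 8.28 normalised reads in WT. Thy1 had 149, 196 and 111 normalised reads in Nat1+/- and 108 and 70.8 in WT, and Pdgfrb had 206, 240 and 153 in Nat1+/- and 107 and 158 in WT. Fn1 (fibronectin, on chromosome 1) had 48584, 31687 and 27428 in Nat1+/- and 11255 and 18153 in WT (limma adjusted p = 0.0648). Col5a1, Col6a1, Col6a2, Lox, Fbln2, Fbn1, Mmp2 and Fstl1 were not called, with differences between -3.24 for Lox and 0.22 for Fbln2. The summed level of the list, most of it Fn1, was 32496 to 53923 in Nat1+/- and 20149 and 30580 in WT, so the sum was higher in Nat1+/- while each of the 6 called members was lower. The part of any such cells in the lower collagens was not tested. Over all 32 tested collagen genes, 6 fell (1 without A7 and 2 without C1) and 1 rose, Col13a1, a transmembrane collagen, with 216, 125 and 157 normalised reads in Nat1+/- and 24.4 and 35.7 in WT.

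Germline genes gave the clearest group of increases. Of 24 tested, 10 rose and 0 fell, against 4.6% higher calls over all genes, and the median difference was 1.17. The list's median was 0.75 in A7, 1.98 in B4 and 1.28 in C1, against -0.18 and 0.18 in WT, so B4, nearest to WT for the contractile genes, was the farthest from it here. Dazl, an RNA-binding protein of germ cells, had 428, 507 and 542 normalised reads in Nat1+/- and 120 and 89.5 in WT (2.23 ± 0.39, SE, limma adjusted p = 0.0134). Stk31 had 333, 455 and 408 in Nat1+/- and 121 and 139 in WT. Hormad1, a protein of meiotic chromosome axes, had 261, 422 and 271 in Nat1+/- and 103 and 106 in WT.

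The piRNA-pathway genes Piwil2 and Mov10l1 rose by 1.68 ± 0.28 and 1.80 ± 0.34 (SE). The other higher members were Ddx4 (a germ cell RNA helicase), Sycp2 (synaptonemal complex), Slc25a31 (a testis ADP/ATP carrier), Taf7l (a germ cell TFIID subunit) and Tuba3a (an alpha tubulin with a near-identical partner, Tuba3b, so its count is uncertain). Among the 14 not called, Mael had 168, 428 and 223 in Nat1+/- and 103 and 90.7 in WT (limma adjusted p = 0.0596), and Tex19.1 had 405, 1330 and 755 in Nat1+/- and 591 and 932 in WT. The number of higher members was 6 without A7, 7 without B4, 5 without C1 and 0 without either WT library.

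Meiotic cohesin genes stood among the 10 highest differences as well. Smc1b, a meiosis-specific cohesin subunit, had 1954, 2345 and 819 normalised reads in Nat1+/- and 127 and 144 in WT (3.52 ± 0.47, SE, limma adjusted p = 0.00871). Stag3, its partner subunit in germ cells, had 4572, 2608 and 3242 in Nat1+/- and 623 and 849 in WT (2.22 ± 0.32, SE). Rbm44, a germ cell RNA-binding protein gene on chromosome 1, had 531, 1186 and 387 in Nat1+/- and 103 and 136 in WT. The others of the 10 were Hal, histidine ammonia-lyase (2.85), Col13a1 (2.42), Klhdc7a (2.28), Dazl (2.23), Dmrtc2, of the DMRT family (2.22), Inpp5d, the lipid phosphatase SHIP1, on chromosome 1 (2.14), and Taf7l (2.12). Hal had 99.6, 82.1 and 82.8 in Nat1+/- and 9.21 and 13.9 in WT, with no overlap.

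Promoters of germline genes silenced in somatic cells often hold the E-box CACGTG, which reads the same on both strands and is bound by several basic helix-loop-helix factors. It was searched after these genes had been seen to differ. It was present for 6 of 9 higher germline genes with a RefSeq promoter (66.7%; Ddx4, Hormad1, Mov10l1, Slc25a31, Stk31 and Taf7l) and for 10 of 20 tested ones (50%). By gene, 8.09% of all 27025 genes with a window held it, as did 11.7% of genes tested and 13.6% of genes called higher. The E2F site TCCCGC, also searched after values were seen, was present for 4 of the 9 and for 40.6% of genes tested. The windows of Stag3 (chr5:138280259-138280558, plus strand), Slc25a31 (chr3:40708621-40708920, plus strand) and Hormad1 (chr3:95559427-95559726, plus strand), RefSeq on GRCm38.p6, are printed to show 1 meiotic cohesin gene and 2 germline genes that rose together, with the E-box in capitals.
Stag3: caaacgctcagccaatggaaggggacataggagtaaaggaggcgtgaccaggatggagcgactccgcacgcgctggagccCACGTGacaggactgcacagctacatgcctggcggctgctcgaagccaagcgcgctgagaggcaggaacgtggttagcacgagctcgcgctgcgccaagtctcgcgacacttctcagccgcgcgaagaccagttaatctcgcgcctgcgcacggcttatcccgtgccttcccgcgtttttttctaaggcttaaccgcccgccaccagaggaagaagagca
Slc25a31: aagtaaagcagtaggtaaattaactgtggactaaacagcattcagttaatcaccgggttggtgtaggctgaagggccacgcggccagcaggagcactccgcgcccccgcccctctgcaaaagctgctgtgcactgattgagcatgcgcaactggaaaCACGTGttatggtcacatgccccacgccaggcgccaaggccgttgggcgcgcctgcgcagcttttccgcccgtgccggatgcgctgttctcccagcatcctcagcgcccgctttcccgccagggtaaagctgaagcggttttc
Hormad1: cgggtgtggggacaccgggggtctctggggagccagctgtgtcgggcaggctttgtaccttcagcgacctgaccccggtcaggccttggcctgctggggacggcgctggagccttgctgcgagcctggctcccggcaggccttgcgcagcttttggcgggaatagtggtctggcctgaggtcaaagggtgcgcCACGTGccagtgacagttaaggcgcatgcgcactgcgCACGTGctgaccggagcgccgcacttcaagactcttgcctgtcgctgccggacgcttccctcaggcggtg
The match began 170 bases before the start of Stag3 and 93 bases before that of Slc25a31, and Hormad1 held 2, at 57 and 20 bases.

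Naive pluripotency genes moved upward in part. Of 21 tested, 6 rose and 0 fell, and the median difference was 0.37, with 0.41 in A7, 0.34 in B4 and 0.38 in C1 against -0.20 and 0.20 in WT. Dppa5a, an RNA-binding protein of stem cells, had 21393, 14689 and 24715 normalised reads in Nat1+/- and 5818 and 8812 in WT (1.47 ± 0.25, SE, limma adjusted p = 0.0118). Tbx3, a T-box factor, had 1902, 1114 and 1511 in Nat1+/- and 364 and 682 in WT. Tfcp2l1 had 15912, 9728 and 15696 in Nat1+/- and 4892 and 6258 in WT, and Nr5a2 had 2596, 2372 and 2496 in Nat1+/- and 1050 and 1450 in WT. Tfcp2l1 and Nr5a2 lie on chromosome 1 and were not called after centring on chromosome medians. Fgf4, a growth factor of the epiblast, and Socs3, an inhibitor of LIF signalling on chromosome 11, also rose.

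The 15 naive genes not called included Nanog, with 4709, 5051 and 4527 normalised reads in Nat1+/- and 3258 and 4417 in WT, and Esrrb, with 10589, 8015 and 8432 in Nat1+/- and 5924 and 8114 in WT. Klf2, with 3442, 3035 and 2752 in Nat1+/- and 3829 and 4308 in WT, lay below WT in all 3 clones (limma adjusted p = 0.115). Without A7 0 naive genes were called higher, and without C1 4 were. Of 13 general pluripotency genes Sox2 alone rose, with 13753, 13454 and 12761 in Nat1+/- and 9519 and 9697 in WT (0.47 ± 0.12, SE, limma adjusted p = 0.041). Sox2 lost the call without any 1 of the 5 libraries. The median of that list was -0.33.

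Formative and primed epiblast genes fell. Of 18 tested, 8 fell and 0 rose, and the median was -0.96, with -1.22 in A7, -0.73 in B4 and -1.28 in C1 against 0.15 and -0.15 in WT. Cdh2, N-cadherin, had 65.3, 83.5 and 113 normalised reads in Nat1+/- and 565 and 552 in WT (-2.70 ± 0.36, SE, limma adjusted p = 0.00871). Zic2, a zinc finger factor of the epiblast, had 126, 253 and 94.2 in Nat1+/- and 916 and 769 in WT. Pou3f1 (Oct6) had 104, 200 and 136 in Nat1+/- and 1007 and 417 in WT. Dnmt3b, a de novo DNA methyltransferase, had 2377, 3361 and 2510 in Nat1+/- and 7307 and 5674 in WT. Zic5, Foxd3, Lef1 and Sall2 also fell. Fgf5, the usual primed marker, had 6.53, 36.0 and 9.99 in Nat1+/- and 176 and 49.6 in WT without passing the test (limma adjusted p = 0.0752), and Nodal, Lefty1 and Lefty2 were not called. Without A7 2 members were called lower, without B4 10 and without C1 5.

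Markers of differentiated lineages gave smaller counts, set against 4.6% higher and 5.41% lower calls over all genes. In the neuroectoderm list 3 of 10 genes fell: Nes (nestin), Pax6 and Sox11. Nes had 402, 1127 and 539 normalised reads in Nat1+/- and 3429 and 1963 in WT. In the trophoblast list 5 of 15 fell: the keratins Krt8, Krt18 and Krt19, Cdx2 and Hand1. Krt19 and Hand1 lie on chromosome 11. Krt8 had 209, 1100 and 271 in Nat1+/- and 2404 and 3184 in WT, again with B4 nearest to WT. Cdx2 was at 1.63, 4.32 and 2.85 in Nat1+/-, which is at or below the limit of a count of 0 in each of these libraries, and at 35.4 and 65.9 in WT. Without A7 no gene of these 2 lists was called.

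Mesendoderm and mesoderm genes were mostly low. Of 20 listed, 10 were tested and T and Wnt3, a WNT ligand on chromosome 11, fell. T had 3.27, 51.8 and 15.7 normalised reads in Nat1+/- and 202 and 237 in WT. In the primitive endoderm list 2 of 15 rose: Lamc1, a laminin chain on chromosome 1, and Hnf4a, a nuclear receptor, with 93.1, 101 and 29.97 in Nat1+/- and 12.9 and 16.9 in WT. Among 9 blood and endothelium genes Runx1 fell by 2.49 ± 0.50 (SE), and among 12 cardiac and skeletal muscle genes Ryr2 rose by 1.05 ± 0.20 and Acta1 fell by 3.01 ± 0.66 (SE). None of the calls named in this account of mesoderm, endoderm, blood and muscle held without A7.

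Lists of signalling genes held more lower than higher calls in several pathways, where 5.41% of all genes were called lower. Of 22 WNT response and destruction complex genes 6 fell and 0 rose. Notum, a secreted WNT inhibitor on chromosome 11 that WNT signalling itself induces, had 132, 158 and 214 normalised reads in Nat1+/- and 643 and 795 in WT (-2.11 ± 0.27, SE, limma adjusted p = 0.00765). Sp5, a direct WNT target, had 18.0, 38.9 and 19.98 in Nat1+/- and 260 and 197 in WT. Tcf7l1, a repressor bound to WNT targets, fell as well, with 183, 214 and 160 in Nat1+/- and 595 and 486 in WT, as did Wnt4, Wnt8a and Lef1. Without A7 2 and without C1 3 of them were called. In footprints, where 21 members of the list were tested, 3 were higher and 3 lower, with a median of -0.14. The summed total RNA level of the list was 40681 to 42533 normalised reads in Nat1+/- and 33313 and 36214 in WT.

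Of 19 genes induced by ERK signalling 6 fell and 0 rose. Dusp5, a phosphatase of ERK, had 160, 222 and 157 normalised reads in Nat1+/- and 498 and 429 in WT. Myc had 86.5, 95.01 and 124 in Nat1+/- and 430 and 451 in WT, and Phlda1 had 34.3, 57.6 and 40.0 in Nat1+/- and 433 and 199 in WT. Etv5 fell by 0.81 ± 0.14 (SE) and Spred2, an inhibitor of the pathway on chromosome 11, by 1.06 ± 0.20 (SE). Of 37 genes for receptors, RAS and MAPK components, 3 rose (Map3k4, Fgfr4 and Frs3) and 2 fell (Map3k3 and Map2k4, both on chromosome 11), so 13.5% were called, near the 10% over all genes. With TMM factors the 3 higher ones were not called. The ERK count was 1 without A7, 3 without B4 and 3 without C1.

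TGF-beta and BMP response genes included 4 lower members of 21 tested: Id2, Id3, Tgfb1i1 and Bmp1. Id2, an inhibitor of basic helix-loop-helix factors, had 127, 203 and 254 normalised reads in Nat1+/- and 707 and 786 in WT. In the LIF and STAT3 list Icam1 and Socs3 rose and Lif fell among 16 genes. Lif itself, on chromosome 11, had 39.2, 46.1 and 54.2 in Nat1+/- and 154 and 146 in WT. Without A7 none of the calls in these 2 lists held.

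**Figure D4:**
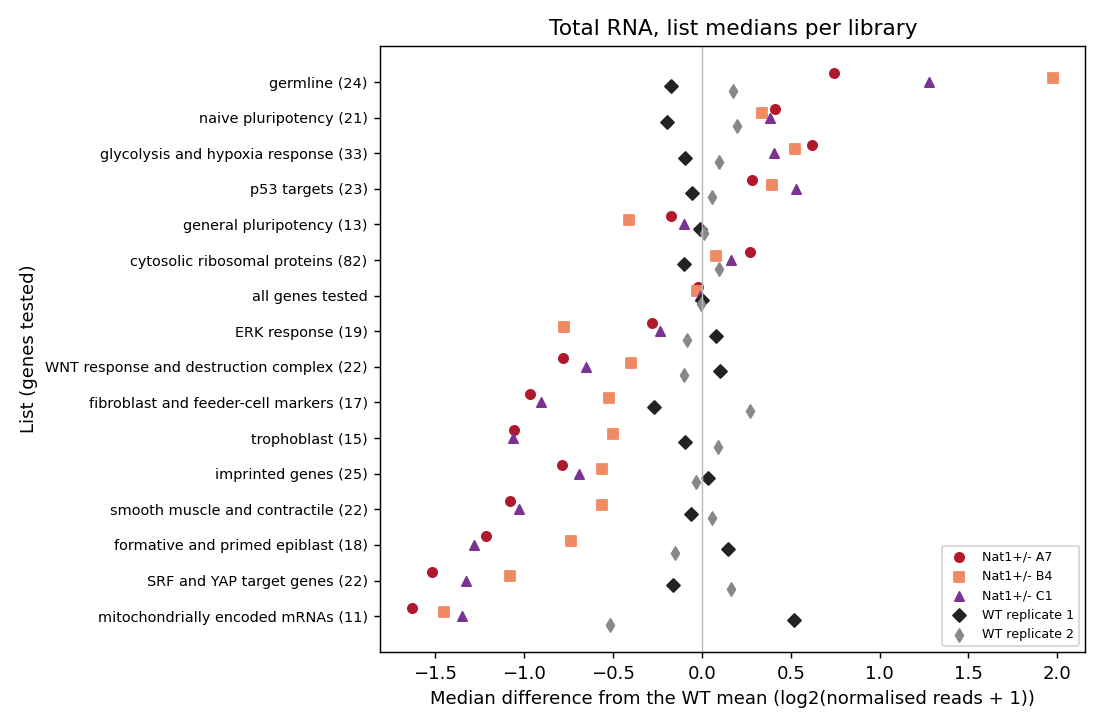
Median over the tested members of each list (rows, with the number tested) of the log2(normalised reads + 1) difference from the WT mean (x axis), with 1 symbol for each Nat1+/- clone and each WT library. Germline genes lie highest in the 3 clones (0.75 to 1.98) and mitochondrially encoded mRNAs lowest (-1.63 to -1.35), where the WT libraries also lie far apart (0.52 and -0.52).

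Imprinted genes fell in part. Of 25 tested, 6 fell and 0 rose, with a median of -0.76. Besides Igf2, Nnat (neuronatin) had 160, 268 and 230 normalised reads in Nat1+/- and 1021 and 979 in WT (-2.22 ± 0.23, SE, limma adjusted p = 0.00464). Peg10, a retrotransposon-derived gene, had 4012, 4382 and 4036 in Nat1+/- and 15448 and 12771 in WT. Gnas, Magel2 and Cdkn1c also fell. Others went the other way without passing the test: Igf2r, which clears IGF2 from the cell surface, had 8079, 8266 and 8035 in Nat1+/- and 2490 and 4989 in WT (limma adjusted p = 0.0841). Grb10, an imprinted adaptor on chromosome 11, had 947 and 842 in A7 and B4 and 4341 in C1, against 4917 and 6621 in WT, so the clones differed among themselves. With TMM factors or equal sums 9 of the 25 were lower. Igf2 and Nnat stayed called without WT replicate 2, and none of the 25 was called without WT replicate 1.

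Glycolysis and hypoxia-response genes rose in part. Of 33 tested, 6 rose and 0 fell, 22 lay above both WT libraries in all 3 clones (26% of all genes did), and the median was 0.51. Hk1, hexokinase 1, had 2807, 3009 and 2552 normalised reads in Nat1+/- and 625 and 896 in WT (1.89 ± 0.30, SE, limma adjusted p = 0.0115). Ldhb, a lactate dehydrogenase subunit, had 12017, 13794 and 8801 in Nat1+/- and 2709 and 3966 in WT. Aldoa, Pgk1 and Ero1l were also among the higher genes. The count was 1 without A7, 3 without B4 and 2 without C1.

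Among 23 targets of p53, 5 rose and 1 fell, where 4.6% of all genes were called higher and 5.41% lower. Trp53inp1 had 7841, 7945 and 8429 normalised reads in Nat1+/- and 4568 and 4012 in WT, and Eda2r, a death receptor, had 2668, 2231 and 2556 in Nat1+/- and 1015 and 1179 in WT. Gdf15, a stress-induced cytokine, and Polk, a translesion polymerase, rose, and Perp fell with 229, 288 and 621 in Nat1+/- and 1252 and 959 in WT. Of 39 cell cycle and replication genes 6 rose and 2 fell. The helicase subunits Mcm3, Mcm4 and Mcm6 rose by 0.92 ± 0.18, 0.70 ± 0.13 and 0.95 ± 0.15 (SE), and Mcm3 and Mcm6 lie on chromosome 1. Ccnd1, cyclin D1, fell with 1370, 1637 and 1940 in Nat1+/- and 3212 and 3571 in WT. Without A7 2 p53 targets and 1 cell cycle gene were called, and without C1 3 and 4.

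Stress and immune lists differed in the share called, set against 10% over all genes. It was 21.4% for ATF4 and integrated stress response genes and 15.8% for interferon response genes. The lists for the unfolded protein response (10%) and heat shock (7.14%) had shares at or below that of all genes. Of 28 ATF4 and integrated stress response genes 6 fell and 0 rose, among them Mthfd2, a mitochondrial folate enzyme, with 1525, 2030 and 1657 normalised reads in Nat1+/- and 3550 and 3478 in WT, and Atf3, a stress-induced transcription factor on chromosome 1, which fell by 1.67 ± 0.30 (SE). The median of that list was -0.07. Of 20 ER chaperone and unfolded protein response genes Xbp1, on chromosome 11, and Edem1 fell, and of 14 heat shock genes Hsp90aa1 rose by 0.59 ± 0.15 (SE). Among 19 interferon response genes Ifitm3, Isg15 and H2-K1 fell. None of 16 iron and metallothionein genes was called, of which Tfrc had the smallest limma adjusted p, 0.0879. The ATF4 count was 3 without A7, 2 without B4 and 2 without C1.

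Chromatin and adhesion lists were mixed, and the shares called among polycomb genes (10.3%), integrins (13.3%) and laminin and basement membrane genes (13.3%) were near the 10% over all genes. In the DNA methylation list Dnmt3l rose and Dnmt3b fell among 14 genes. Of 29 polycomb genes Ezh2, the methyltransferase subunit, rose with 5187, 5132 and 5156 normalised reads in Nat1+/- and 3654 and 3555 in WT, whereas Phc1 (4201, 4638 and 4620 in Nat1+/-, 10249 and 8600 in WT) and Cbx2, on chromosome 11, fell. Of 20 epithelial junction and keratin genes 5 fell: Krt8, Krt18, Krt19, Jup and Cldn7, the last 3 on chromosome 11. Of 15 integrins Itga3, on chromosome 11, and Itga1 fell, and of 15 laminin and basement membrane genes Lamc1 and Fbln1 rose. Of 8 neural crest and ciliary genes Tbx20, Ets1 and Foxd3 fell. Without A7, Phc1 and Itga3 were still called.

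Genes of translation and energy machinery gave counts at or below the background in most lists. None of 82 cytosolic ribosomal protein genes was called, with a median of 0.18 (limma), and the smallest limma adjusted p was 0.0904, for Rpl4. DESeq2 called 2 of them higher and edgeR 0. Their footprints had a median of -0.72, with 0 higher and 11 lower calls of 82. Over all genes tested in footprints, 5.35% were called higher and 5.13% lower. Of 76 mitochondrial ribosomal protein genes 5 fell and 1 rose. All 5 lower ones, among them Mrpl10, Mrps7, Mrpl45 and Mrpl27, lie on chromosome 11, and the higher one, Mrps14, lies on chromosome 1. Without A7 or C1 1 of the 6 was called. Of 76 nuclear-encoded respiratory chain genes 6 rose and 0 fell, among them Sdhc, Ndufs1 and Ndufa10, which lie on chromosome 1. The count was 1 without A7, 3 without B4 and 2 without C1. Of 39 proteasome genes Psmd1, on chromosome 1, and Psma8, a testis form, rose, and Psmb10, an immunoproteasome subunit, fell. Of 60 tested histone genes 2 rose, Hist1h2bp and Hist1h2bb, whose family members are near-identical copies and so are uncertain, and DESeq2 called 11 higher.

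Mitochondrially encoded mRNAs had values below WT and did not pass the test. Of 11 tested, 0 were called by limma over the 8 libraries or by edgeR, while DESeq2 called 4 lower and limma over the 5 compared libraries alone called 6 lower. In all, 9 lay below both WT libraries in all 3 clones (28.6% of all genes did), and the median was -1.43. The gene mt-Nd1 had 2211, 2123 and 2115 normalised reads in Nat1+/- and 10509 and 5121 in WT. The summed level was 44778, 50588 and 51221 in A7, B4 and C1, against 117100 and 68617 in WT replicates 1 and 2. The 2 WT libraries therefore differed from each other by more than the clones did. In the Nat1-/- clones the sum was 91865 in B12, the deep library, and 62101 and 34733 in B2 and C3. The shallow clones B2 and C3 thus also differed from each other, and the part of depth in this level was not tested.

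Variation among the 3 clones was widest for a few genes. These were described for their spread alone. The X-linked genes 1700013H16Rik and Xlr3b had 258 and 230 normalised reads in B4, against 3.27 and 6.53 in A7 and 27.1 and 28.5 in C1, while WT had 9.67 and 4.84 for the first and 19.3 and 11.5 for the second. Xlr3b belongs to a family of near-identical copies and its count is uncertain. Ccdc172 was likewise high in B4 (210, against 6.53 in A7 and 12.8 in C1, with 17.5 and 9.07 in WT). Cnksr2 was highest in C1, with 227 against 11.4 and 48.9 in A7 and B4, and 85.1 and 58.7 in WT. Gbp2, an interferon-induced GTPase, had 37.6, 629 and 77.1 in Nat1+/- and 1251 and 632 in WT, and Efemp1, a fibulin, had 1.63, 59.0 and 22.8 in Nat1+/- and 89.3 and 78.0 in WT.

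The 7 tested Y-linked genes were not called. Ddx3y had 2164, 1868 and 1446 normalised reads in Nat1+/- and 1768 and 1896 in WT, Eif2s3y had 3262, 2561 and 2856 in Nat1+/- and 2403 and 2216 in WT, and Uty had 1270, 1025 and 893 in Nat1+/- and 1143 and 1024 in WT. Kdm5d, Zfy1 and Uba1y overlapped between the groups. Usp9y had 9.80, 1.44 and 27.1 in Nat1+/- and 38.2 and 29.0 in WT. None of 12 X-inactivation and X-cluster genes and none of 2 genes of the 2-cell-like state was called either. The smallest limma adjusted p in those lists was 0.0959 for Xlr4b and 0.317 for Sp110.

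Most genes called in total RNA had footprint differences of the same direction. They share the cultures and so are not independent replicates, but were read in separate libraries of more even depth, 17.8 to 18.9 M reads in Nat1+/- and 23.8 and 20 M in WT. Of 13110 genes tested in footprints, 701 were higher (5.35%) and 673 lower (5.13%). Of the 630 genes higher in total RNA and tested in both, 385 were also called higher in footprints, 0 were called lower and 625 had a difference above 0. Of the 728 lower ones, 361 were called lower, 0 higher and 715 had a difference below 0. These shared calls were 385 of the 699 and 361 of the 665 footprint calls tested in both assays. Some lists without many calls in total RNA had medians of opposite sign in the 2 assays. The medians were 0.18 in total RNA and -0.72 in footprints for cytosolic ribosomal proteins and 0.25 and -0.25 for histones. For eIF1, eIF2, eIF3 and eIF5 factors they were 0.10 and -0.26. The footprint count was 0 without WT replicate 1 and 23 without WT replicate 2, and it was 84 without A7 and 389 without C1.

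**Figure D5:**
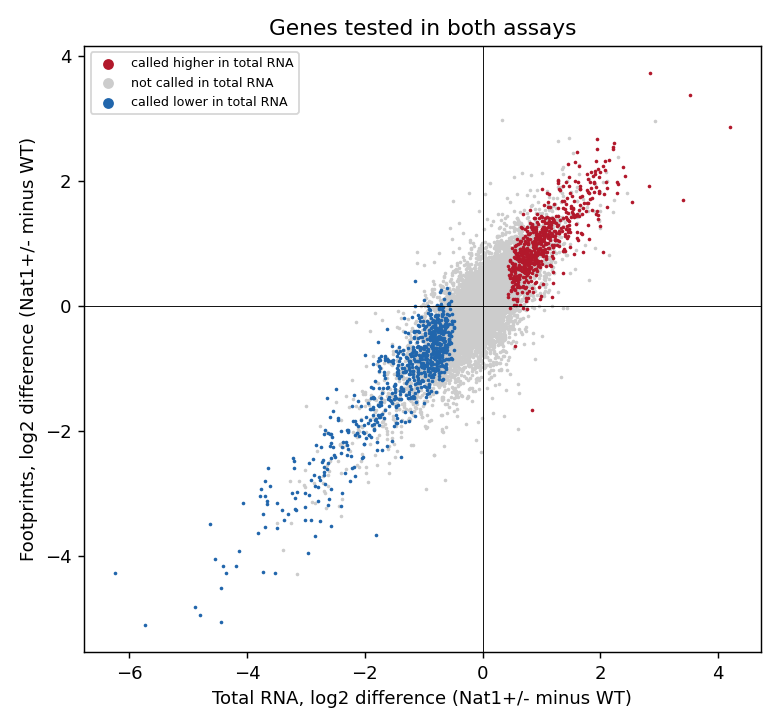
Log2 difference (Nat1+/- minus WT) in total RNA (x axis) against that in footprints (y axis) for the 12933 genes tested in both assays, each point 1 gene; red points were called higher and blue points lower in total RNA. Of the 630 red genes 625 lie above 0 and of the 728 blue genes 715 lie below 0 on the footprint axis.

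Sizes in the 2 assays were close for some named genes and unlike for others. Footprint differences were -5.10 ± 0.54 for Igf2, -4.95 ± 0.84 for Acta2, -2.22 ± 0.23 for Cnn2 and 3.37 ± 0.53 for Smc1b (SE), near those in total RNA. Cav1 differed by -4.28 in footprints and -6.24 in total RNA, Zic5 by -0.37 and -1.63, Runx1 by -1.33 and -2.49, and Map3k3 by -0.33 and -0.73. The fit of the footprint to total RNA ratio, which tests whether the 2 differences of a gene are unequal, called 0 of 12933 genes (limma), with 2508 at an unadjusted p under 0.05 (19.4%). With genes of a mean of at least 50, it called 3: Nkain1, whose ratio was higher in Nat1+/-, and Bex1 and Bcas1, whose ratios were lower. Nkain1 had 199, 190 and 218 normalised reads of total RNA in Nat1+/- and 515 and 392 in WT, with a footprint difference of -0.01 ± 0.29 (SE). Bex1 had 3354, 4032 and 3606 in Nat1+/- and 3809 and 3597 in WT, with a footprint difference of -0.98 ± 0.24 (SE). The other genes of smallest p were Lrfn1, Plagl1 and Ccdc174.

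Depth class was also set beside the calls through the Nat1-/- clones. Their deep library, B12, lay below both shallow ones, B2 and C3, for 58.8% of the genes called higher, against 35.0% of all genes tested. It lay above both for 59.3% of the genes called lower, against 40.8% of all genes. For called genes B12 thus differed from B2 and C3 in the direction of WT more often than for all genes. The part of depth in the calls was not tested beyond the fit with a depth term. B12 is also a clone of its own, so its clone and its depth cannot be told apart. Igf2 and Smc1b, which are among the 10 lowest and 10 highest differences, are given as examples and do not stand for the other calls. Igf2 had 10.3 normalised reads in B12 and 15.99 and 7.45 in B2 and C3, all below both WT libraries. Smc1b had 253 in B12 and 317 and 687 in B2 and C3, all above both WT libraries.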

How the data were processed

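The TruSeq Ribo Profile kit was used for total RNA and footprints, per the labels. Each deposited value is a size-factor-scaled signal that the authors made from read counts. The submitters' processing notes name the builds GRCm38.p4 and mm10, and the tools HTSeq 0.6.1, TopHat2 2.1.0, Bowtie2 2.2.8, DESeq2, bcl2fastq 2.17 and cutadapt 1.9.1. Strand and multi-mapping settings are not given in the sources used here. Whole reads were recovered for 100% of values within 0.001. Of 21977 names 27 had become dates.

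Groups came from the labels. limma 3.58.1 (R 4.3.3, trend in eBayes) was fitted to log2(value + 1) of the 8 total RNA libraries with 3 genotype means, and likewise to footprints and to their log2 ratio within a culture. Tests were two-sided, with Benjamini-Hochberg adjustment over all genes tested. Nothing states that WT replicates were separate cultures beyond their numbers, so p-values measure the spread between these libraries. Alternatives were other minimums, pseudocounts, scalings and variance settings, tests of the recovered reads with DESeq2 1.42.0 and with edgeR 4.0.16, leaving out each library, a replicate block and a depth term. The chromosome settings were added after seeing the data. The fits were tested on simulated data.

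The comparison, the lists and the naming rule were chosen with earlier results of these data known. Named genes are Eif4g2, Map3k3, Sos1, Eif4g1 and Eif4g3; the 10 highest and 10 lowest called differences with a mean of at least 50 and no overlap, predicted genes passed over; up to 5 called members of each list, or the member of smallest p; the 6 genes of widest range among the clones; all tested fibroblast, contractile and Y-linked genes; and the 3 smallest ratio p in each direction. Other list members named in the text were chosen after their values were seen. A RefSeq table gave a chromosome for 99.1% of tested names, and RefSeq promoters gave sequences.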

Additional observations from a re-analysis of the deposited data

How the results depend on the processing

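All 1383 calls kept their direction under each alternative that still tested them, but the counts moved. The genes were called for their differences in these same libraries, so the kept directions are no separate support. In total RNA, 1383 genes were called (636 higher, 747 lower). The 5 compared libraries alone gave 2768 (1313 and 1455), DESeq2 2559 (1222 and 1337), a variance without trend 549 (232 and 317), a depth term 0 (0 and 0), and leaving out chromosomes 1 and 11 885 (420 and 465, fewer genes being tested). Without a minimum value 417 were higher, and with equal library sums 1150 were lower. Other filters, pseudocounts, TMM factors, edgeR and centring on chromosome medians kept the total within 1.5 times. Leaving out 1 library gave 0 to 1059 calls (0 to 414 higher, 0 to 645 lower). With 1 WT library left, it is assumed to vary like the other groups. The cause was not tested.

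Of 1374 footprint calls, the 5 libraries alone gave 2638 and leaving out 1 library 0 to 1197. The ratio fit gave 0 calls and 3 with a mean of at least 50. Eif4g2 (-1.52, limma adjusted p = 0.0277) was no longer called without a trend (-1.52, 0.0713), with a depth term (-0.65, 0.671) or without any 1 library (-1.93 to -1.10).

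Whether replicate numbers pair the libraries could not be decided. For the 2 shared numbers, deviations from group means correlated at r = -0.109 and -0.0518. With 2 WT libraries the deviations of WT mirror each other, so these values cannot exclude pairing. With a replicate block, 190 genes were called in total RNA (102 higher, 88 lower) and 162 in footprints. Depth of 13.2 to 14.8 M reads limits genes near 4.90 normalised reads.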
